A study of Mus musculus with 26 samples.

Results

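The core cardiac transcription factors examined here are 10 genes of the GATA, NK, MEF2, T-box and HAND families: Gata4, Gata6, Nkx2-5, Mef2a, Mef2c, Mef2d, Tbx5, Tbx20, Hand2 and Tbx2. They were taken by gene symbol from the 47642 genes that had counts in the deposited tables, by a rule that holds no measured value, and all 10 were found. Messenger RNA of the mouse cardiac left ventricle was counted in 26 libraries by 3′ end sequencing (QuantSeq, forward kit), in which a transcript gives a tag only from its polyadenylated end. Males carried UtyGt(XS0378)Wtsi, a trap insertion in intron 4 of Uty, a histone demethylase gene on the Y chromosome, or the wild-type gene of the isogenic strain C57BL/6.Y<129P2>. Such an insertion cuts the host transcript short, and it is present in every cell that carries this Y chromosome. Surgery, either castration or a sham operation, took place at about 10 days of age, and tissue was taken at 40 days. The sham-operated libraries numbered 6 per genotype and the castrated ones 7 per genotype, and every SD below is over these n. The comparisons set gene trap against wild type in sham-operated and in castrated males, and castrated against sham libraries in each genotype. The last asks whether the castration effect differs by genotype. Words such as effect, changed, raised, lowered, rose and fell name differences between groups. Library differences that run with the groups, such as the GC slope given below, cannot be told apart from trap or surgery. The labels do not state that each library came from its own animal, and the p-values may then reflect only the spread of these samples, which may be technical. In bulk tissue, fewer cells of a type and less RNA per cell cannot be told apart.

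As background, heart muscle genes are switched on by a small set of DNA-binding proteins that act together on shared enhancers. GATA zinc-finger proteins, the homeodomain protein NKX2-5, T-box proteins and the HAND basic helix-loop-helix proteins pattern the embryonic heart, and MEF2 proteins link contractile genes to calcium and stress signals. Many of these genes remain active in the adult ventricle, and loss of a functional copy of GATA4, NKX2-5, TBX5 or TBX20 is a known cause of human congenital heart disease.

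Each library held 6357485 to 9399241 counts assigned to genes. The unit of level is CPM, a count divided by the library total after TMM correction for composition and brought to a common scale. A transcript yields 1 kind of tag whatever its length, so CPM of different genes were compared without division by length. Uty itself had a mean of 7.53 CPM (sham) and 8.76 CPM (castrated) with the wild-type gene, against 0.430 CPM and 0.584 CPM with the trap, and 2 castrated gene-trap libraries had no Uty tag, which allows up to 0.391 and 0.415 CPM there. Markers of the labelled tissue were present: the summed level of 8 cardiomyocyte markers had a median of 88271 CPM in wild-type sham, 64489 CPM in gene-trap sham, 52655 CPM in wild-type castrated and 59285 CPM in gene-trap castrated libraries. Of 5 atrial markers only Bmp10 was at 0 in all groups, and their sum is given beside Tbx5. Some libraries stood apart before any test. A GC slope was fitted in each library on the GC content of the last 400 bases of transcripts. It used each gene's log2 level minus that gene's mean over all libraries, so the slopes compare libraries with each other. The slope averaged 0.238 log2 units per 10 GC points in wild-type sham. It averaged -0.0597, -0.130 and -0.0231 in gene-trap sham, wild-type castrated and gene-trap castrated libraries. Castrated gene-trap replicates 1 to 4 lay between -39.7 and -28.1 on the second principal component, below every other library. Where any of 3 further fits changes a call, its value follows: the fit with each library's GC trend taken out (GC offset), the fit with the first within-group component as a covariate, and the fit without those 4 libraries. The within-group component was derived from the libraries outside wild-type sham with their group means taken out. All libraries were then placed on it. The component also differed between groups. Wild-type sham libraries lay between -2.265 and -1.085 on it, apart from replicate 6 at 0.1775. Gene-trap sham libraries lay between -0.7376 and 1.041. Wild-type castrated libraries were at 0.5971 or more, apart from replicate 5 at -0.5638. Gene-trap castrated libraries lay between -1.321 and 1.264, with replicates 1 to 4 at 0.2697 or less and replicates 5 to 7 at 0.7267 or more. As a covariate the component takes up part of the differences from wild-type sham, and it also follows that split. A call lost with it therefore cannot be put down to variation within groups.

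All 10 genes are annotated on GRCm38 and were counted over their exons. For 6 of them a promoter sequence, 250 bases before to 50 bases after a RefSeq start on GRCm38.p6, was used; Gata4, Gata6, Tbx5 and Tbx2 are named only. The 4 windows below belong to Mef2a, Tbx20, Mef2d and Nkx2-5. Against wild-type sham, Mef2a and Tbx20 were higher in gene-trap sham and in wild-type castrated libraries. Mef2d and Nkx2-5 were lower in both. The other comparisons did not share this pattern. They are written 5′ to 3′ on the strand of the gene, with capitals for matches to the motifs searched. Mef2a lies on the minus strand with its window at chr7:67372809-67373108, Tbx20 on the minus strand at chr9:24774254-24774553, Mef2d on the plus strand at chr3:88142122-88142421 and Nkx2-5 on the minus strand at chr17:26841516-26841815.
Mef2a: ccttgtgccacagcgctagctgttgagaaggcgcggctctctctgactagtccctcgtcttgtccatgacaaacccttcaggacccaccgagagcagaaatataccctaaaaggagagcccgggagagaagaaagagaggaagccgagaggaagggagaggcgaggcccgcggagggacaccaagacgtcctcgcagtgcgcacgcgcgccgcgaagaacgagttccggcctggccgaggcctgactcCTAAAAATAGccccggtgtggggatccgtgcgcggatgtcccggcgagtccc
Tbx20: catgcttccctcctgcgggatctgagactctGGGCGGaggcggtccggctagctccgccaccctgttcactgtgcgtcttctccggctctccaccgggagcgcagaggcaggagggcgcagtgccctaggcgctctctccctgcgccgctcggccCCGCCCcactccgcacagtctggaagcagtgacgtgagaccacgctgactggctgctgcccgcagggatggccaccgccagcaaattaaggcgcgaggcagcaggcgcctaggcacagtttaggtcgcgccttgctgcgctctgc
Mef2d: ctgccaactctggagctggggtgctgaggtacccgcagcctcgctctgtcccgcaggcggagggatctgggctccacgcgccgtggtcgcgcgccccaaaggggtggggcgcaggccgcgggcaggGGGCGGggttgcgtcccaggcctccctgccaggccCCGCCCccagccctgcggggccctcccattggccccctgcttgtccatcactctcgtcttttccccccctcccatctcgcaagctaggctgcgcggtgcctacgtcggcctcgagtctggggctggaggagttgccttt
Nkx2-5: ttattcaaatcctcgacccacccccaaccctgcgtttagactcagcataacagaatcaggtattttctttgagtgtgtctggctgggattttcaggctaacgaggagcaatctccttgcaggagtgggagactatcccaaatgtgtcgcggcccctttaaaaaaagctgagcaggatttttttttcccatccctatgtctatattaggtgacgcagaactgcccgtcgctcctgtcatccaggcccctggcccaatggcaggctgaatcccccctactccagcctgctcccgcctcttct
The motifs, read on both strands, were the GATA motif AGATAA with its relatives that end in G, namely AGATAG, or begin with T, namely TGATAA and also with both changes TGATAG, the T-box half-site AGGTGT, the NKX2-5 motif TAAGTG with its relative that begins with C, namely CAAGTG, the MEF2 motif, the HAND E-box CATCTG, the TATA box TATAAA and the GC box GGGCGG. A match to the MEF2 motif can contain the TATA box, and no other motif contains another. The Mef2a window held 1 match to the MEF2 motif, the motif its own protein family binds, which 3.19% of 32851 promoter windows of the same length held. Tbx20 and Mef2d each held 2 GC boxes, as did the Hand2 window, and 35.7% of all windows held at least 1. The Nkx2-5 window held no match, which says only that these letters are not in it. GC content was 62.3% for Mef2a, 68.3% for Tbx20, 72.0% for Mef2d and 51.7% for Nkx2-5, against a median of 52.7% over all windows. Hand2 (chr8:57320733-57321032, plus strand) had the most matches, with 2 GATA, 1 NKX2-5 and 1 HAND E-box, motifs held by 29.8%, 21.3% and 17.2% of windows. The first of 3 Mef2c windows held 1 NKX2-5 motif and 1 TATA box, which 13.6% of all windows held, and the second held 1 T-box half-site, which 13.7% held. These matches are descriptions of sequence and not evidence of binding.

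The 10 genes spanned a wide range of levels. Over the 26 libraries Mef2d was the most abundant at 184 ± 27.5 CPM (SD), followed by Tbx20 at 119 ± 28.7, Mef2a at 113 ± 22.4, Mef2c at 92.8 ± 12.2 and Tbx5 at 75.2 ± 23.9 CPM. Gata6 averaged 58.2 ± 17.1, Nkx2-5 52.6 ± 17.5, Hand2 38.8 ± 4.73 and Gata4 29.2 ± 8.14 CPM, and Tbx2 was the least abundant at 6.18 ± 1.92 CPM. Mef2d stood above Tbx20, Hand2 above Gata4 and Gata4 above Tbx2 by more than the SD of either gene, whereas the other neighbours in this order lay within their spread. The order was not the same in every group. In wild-type sham libraries the second place belonged to Tbx5 at 96.8 CPM, with Tbx20 at 87.4 CPM, while in the other 3 groups Tbx20 was second and Tbx5 was below Mef2c. Of the relatives of the members, Mef2b had no count in any library, Hand1 at most 1 count and Gata5 at most 7 counts per library. Tbx3, with group means of 13.99 to 20.3 CPM, stood above Tbx2, and Gata2 (4.45 to 12.7 CPM) and Tbx18 (4.46 to 6.25 CPM) stood near it. Hand2 varied least, with its highest library 1.63 times its lowest, and Tbx5 most, at 4.15 times.

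**Figure D1:**
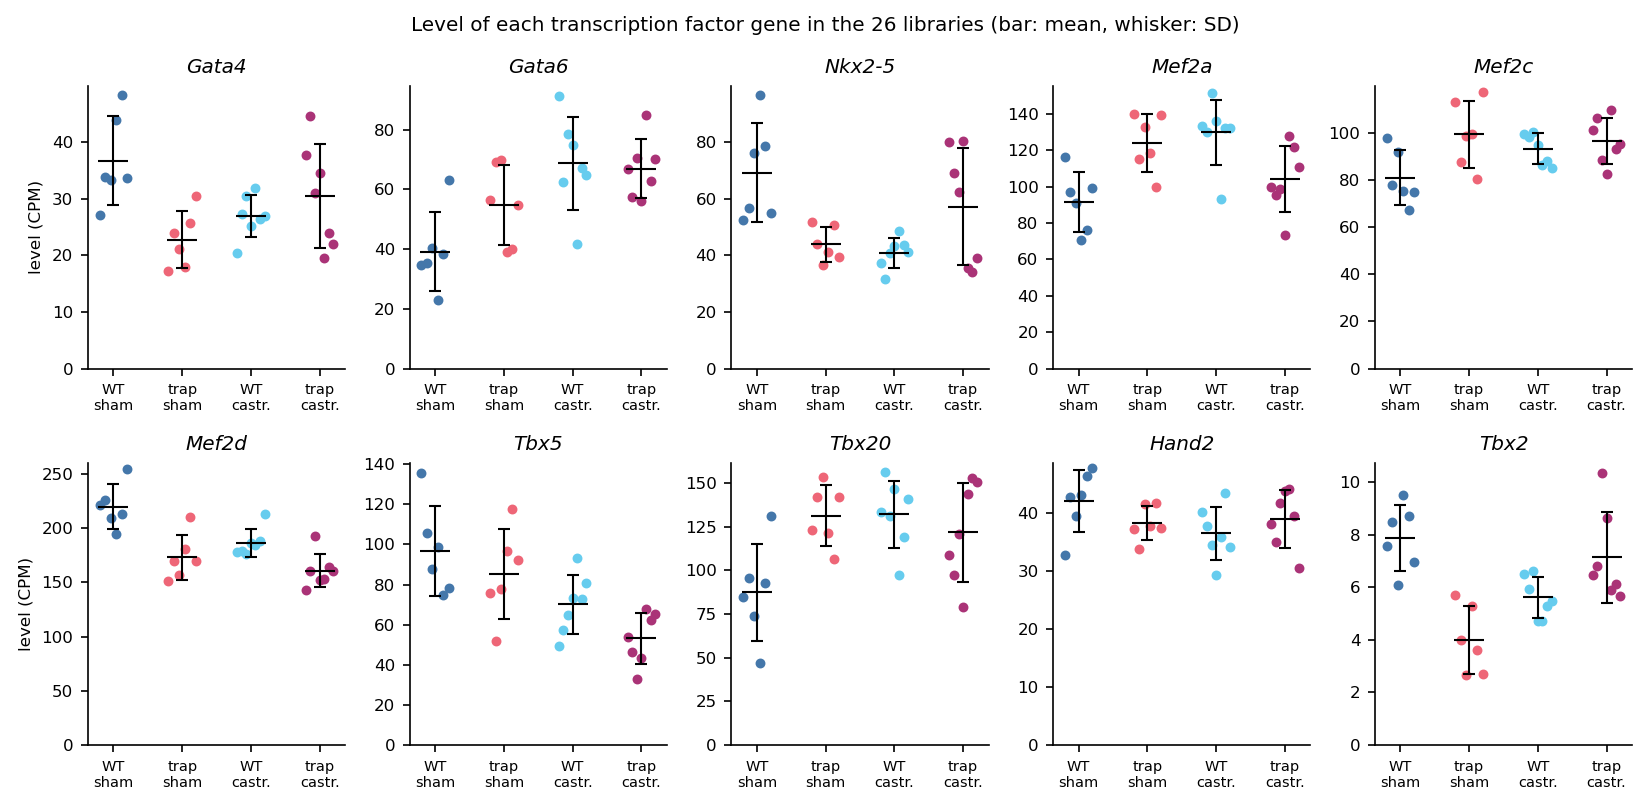
Level of each transcription factor gene in CPM (vertical axis, from 0) in the 4 groups (WT, wild type; trap, gene trap; castr., castrated), with 1 point per library, a bar for the mean and whiskers for the SD. In wild-type sham libraries Nkx2-5 lies between 52.5 and 96.6 CPM and Tbx2 between 6.10 and 9.52 CPM, above every gene-trap sham library, while Mef2a and Tbx20 are lower there on average than in the other groups.

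In sham-operated males 6 of the 10 genes differed between the genotypes. Mef2a and Tbx20 were higher in gene-trap than in wild-type sham libraries, and Gata4, Nkx2-5, Mef2d and Tbx2 were lower (edgeR quasi-likelihood test, Benjamini-Hochberg adjusted p under 0.05). The same test called 26.2% of all genes tested, 11.9% higher and 14.3% lower, so that many genes changed besides these. For 2 members, Nkx2-5 and Tbx2, the 2 groups did not overlap, as was the case for 7.62% of all genes. The median absolute log2 fold change of the members was 0.48, against 0.32 over all genes. In castrated males 0 members were called by edgeR, DESeq2 or limma voom, which called 24, 545 and 261 of all genes. For edgeR that was 0.205% of the genes tested, 0.0941% higher and 0.111% lower. At an unadjusted p under 0.05 in edgeR there were 5 members, against 20.4% of all genes. No member separated the castrated groups, as was true of all but 0.393% of genes.

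In wild-type males 8 of the 10 genes differed between castrated and sham libraries. Gata6, Mef2a and Tbx20 rose, and Gata4, Nkx2-5, Mef2d, Tbx5 and Tbx2 fell, while Mef2c and Hand2 did not pass the test. The background was again high, with 40.3% of all genes called, 19.1% higher and 21.3% lower. Only Nkx2-5 among the members had groups that did not overlap, against 6.83% of all genes. In gene-trap males 1 member, Tbx2, was called between castrated and sham libraries, and it was higher after castration. Of all genes 0.407% were called, 0.155% higher and 0.252% lower. In no member did the groups separate, against 0.594% of all genes. The castration effect differed by genotype for 5 members: it was more positive in the gene trap for Gata4, Nkx2-5 and Tbx2 and more negative for Mef2a and Tbx20, where 20.1% of all genes were called, 11.8% more positive and 8.35% more negative. The genotype comparison in sham-operated males, the castration comparison in wild type and the difference of castration effects share the wild-type sham libraries, so their values are given side by side and not as separate support for each other. Without castrated gene-trap replicates 1 to 4, edgeR called 0 members for castration in gene trap, with 1 at an unadjusted p under 0.05, and 0 for the difference by genotype, with 3 at that level. With 3 libraries left in that group, the same fit called 3 of all genes for castration in gene trap and 0 for the difference.

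**Figure D2:**
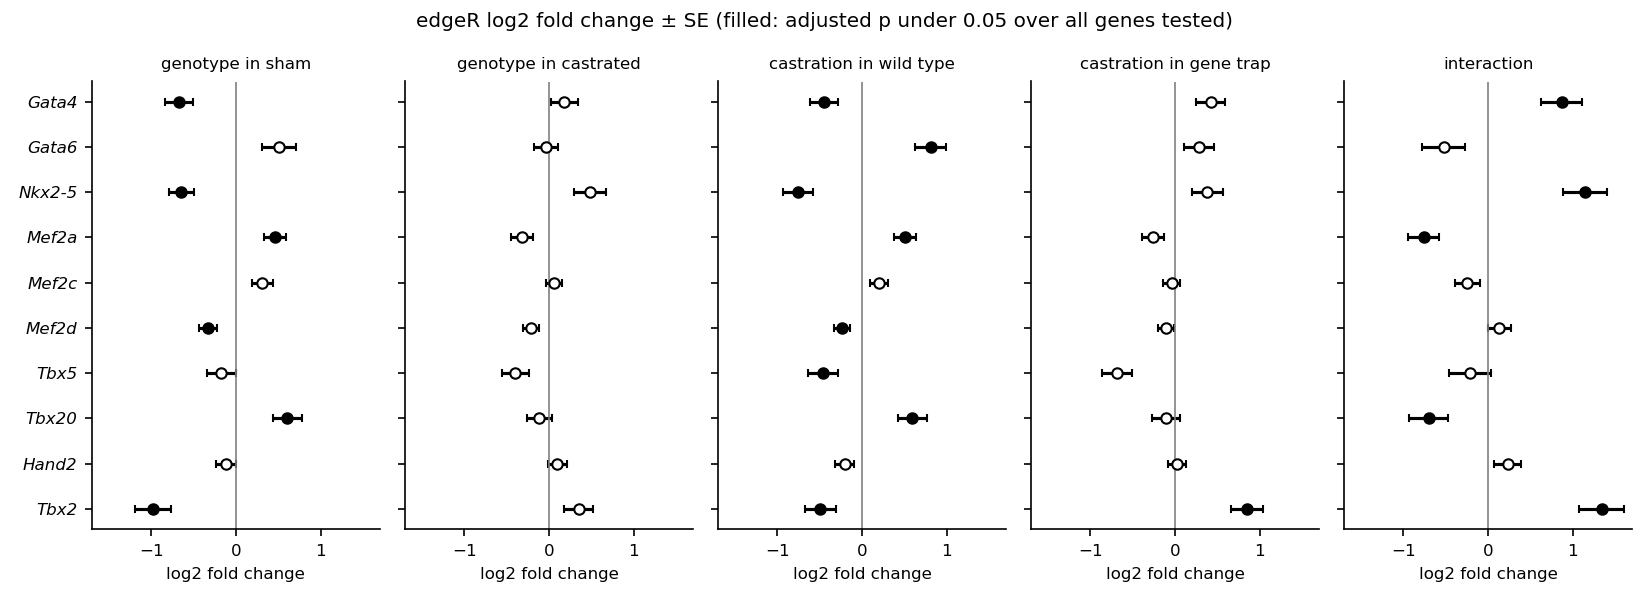
edgeR log2 fold change of each member (horizontal axis) with its SE in 5 comparisons: gene trap minus wild type in sham and in castrated males, castrated minus sham in wild type and in gene trap, and the difference of the castration effects (interaction, gene trap minus wild type). Filled points have an adjusted p under 0.05 over all genes tested: 6 in the first panel, 0 in the second, 8 in the third, 1 in the fourth and 5 in the fifth.

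Gata4 and Gata6 encode zinc-finger proteins with overlapping roles in ventricular muscle growth. Gata4 (chromosome 14, minus strand) had its lowest, median and highest library at 27.1, 33.8 and 48.4 CPM in sham-operated wild type, 17.3, 22.5 and 30.5 CPM in gene-trap sham, 20.4, 26.9 and 31.9 CPM in wild-type castrated, and 19.6, 31.1 and 44.6 CPM in gene-trap castrated libraries. Wild-type sham was the highest group, and its range overlapped that of each other group. Gata4 was 1.59-fold lower in the gene trap among sham-operated males (-0.67 ± 0.16 on the log2 scale, value ± SE; edgeR adjusted p = 0.00652), and castration lowered it 1.36-fold in wild type (-0.45 ± 0.17, edgeR adjusted p = 0.0348). With the GC offset the sham difference was -0.64 (edgeR adjusted p = 0.0108) and the castration effect in wild type was -0.39 (edgeR adjusted p = 0.0671), no longer called. The within-group component ended both calls, at -0.65 (edgeR adjusted p = 0.0769) and -0.090 (edgeR adjusted p = 0.953), and the castration call was also lost without wild-type sham replicate 4 or 5 or wild-type castrated replicate 1, 4, 6 or 7 (-0.52 to -0.35 over all single libraries left out). In gene-trap males the castration effect was 0.42 ± 0.17 (edgeR adjusted p = 0.197), and the difference of the castration effects was 0.87 ± 0.24 (edgeR adjusted p = 0.0143), which became 0.38 (edgeR adjusted p = 0.454) without castrated gene-trap replicates 1 to 4 and 0.47 (edgeR adjusted p = 0.557) with the component. Those 4 libraries held 31.1 to 44.6 CPM of Gata4, and replicates 5 to 7 of the same group held 19.6 to 24.0 CPM.

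Gata6 (chromosome 18, plus strand) went the other way. Its lowest, median and highest library stood at 23.1, 36.8 and 63.0 CPM in sham-operated wild type, 39.1, 55.6 and 69.9 CPM in gene-trap sham, 41.8, 67.2 and 91.3 CPM in wild-type castrated, and 56.0, 66.7 and 85.0 CPM in gene-trap castrated libraries. Wild-type sham was the lowest group, with replicate 6 at its top. Castration raised Gata6 1.75-fold in wild type (0.81 ± 0.18, edgeR adjusted p = 0.00126), and with the GC offset the effect was 1.06 (edgeR adjusted p = 0.00129). With the within-group component it was 0.12 (edgeR adjusted p = 0.896), not called. In sham-operated males the gene trap had 0.51 ± 0.20 more on the log2 scale, which missed the threshold (edgeR adjusted p = 0.0703) and passed it at 0.69 without wild-type sham replicate 6 (edgeR adjusted p = 0.00537) and also without gene-trap sham replicate 4 or 5. With the component that value was -0.14 (edgeR adjusted p = 0.606). The ratio of Gata6 to Gata4 CPM was 1.12 ± 0.464 in wild-type sham (SD), 2.50 ± 0.759 in gene-trap sham, 2.65 ± 0.949 in wild-type castrated and 2.44 ± 1.06 in gene-trap castrated libraries. Wild-type sham ranged from 0.525 to 1.88 and overlapped the other groups, which reached down to 1.56, 1.31 and 1.29. The summed level of the 2 genes was 75.9, 77.6, 95.6 and 97.5 CPM in the same order of groups. Gata2, a family member known from blood and endothelial cells, rose from 4.45 ± 3.08 CPM in wild-type sham to 12.7 ± 2.47 CPM in wild-type castrated libraries (1.502 ± 0.31, edgeR adjusted p = 0.000774).

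Nkx2-5, the homeodomain protein that marks cardiac muscle from its earliest stage, showed the cleanest separation of wild-type sham from both groups that differ from it by 1 factor. Its lowest, median and highest library stood at 52.5, 66.5 and 96.6 CPM in sham-operated wild type, 36.5, 42.6 and 51.8 CPM in gene-trap sham, and 31.8, 41.1 and 48.6 CPM in wild-type castrated libraries. Every wild-type sham library was above every library of those 2 groups. It was 1.56-fold lower in the gene trap among sham-operated males (-0.64 ± 0.15, edgeR adjusted p = 0.00575), and castration lowered it 1.69-fold in wild type (-0.76 ± 0.18, edgeR adjusted p = 0.00213). The gene-trap castrated libraries fell in 2 ranges: replicates 1 to 4 held 62.4 to 80.6 CPM and replicates 5 to 7 held 34.0 to 39.0 CPM. In gene-trap males the castration effect was 0.38 ± 0.18 (edgeR adjusted p = 0.272) over all 7 libraries and -0.25 (edgeR adjusted p = 0.740) with replicates 5 to 7 alone. The difference of the castration effects, 1.14 ± 0.26 (edgeR adjusted p = 0.00625), became 0.47 (edgeR adjusted p = 0.329) in the latter case. The last 400 bases of its transcripts had a GC content of 65.8%, higher than in 99.9% of the genes tested. Under the GC offset the sham difference was 0.036 (edgeR adjusted p = 0.859), the castration effect in wild type -0.15 (edgeR adjusted p = 0.287) and the difference by genotype 0.19 (edgeR adjusted p = 0.410), so that all 3 calls were lost. They were lost with the within-group component too, at -0.31 (edgeR adjusted p = 0.300), -0.11 (edgeR adjusted p = 0.928) and 0.44 (edgeR adjusted p = 0.536).

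The MEF2 genes encode MADS-box proteins that bind the same motif in muscle genes, and 3 of the 4 family members were present. Mef2a (chromosome 7, minus strand) had its lowest, median and highest library at 70.5, 94.0 and 116 CPM in sham-operated wild type, 99.6, 126 and 140 CPM in gene-trap sham, 93.2, 132 and 151 CPM in wild-type castrated, and 73.5, 99.8 and 128 CPM in gene-trap castrated libraries. The wild-type sham range overlapped the others from below. It was 1.37-fold higher in the gene trap among sham-operated males (0.46 ± 0.13, edgeR adjusted p = 0.0157), and castration raised it 1.42-fold in wild type (0.50 ± 0.13, edgeR adjusted p = 0.00352). In gene-trap males the castration effect was -0.26 ± 0.13 (edgeR adjusted p = 0.295), and the difference of the castration effects was -0.76 ± 0.18 (edgeR adjusted p = 0.00775). With the GC offset the sham difference was 0.21 (edgeR adjusted p = 0.214) and the castration effect 0.19 (edgeR adjusted p = 0.166), both no longer called, while the difference by genotype was -0.43 (edgeR adjusted p = 0.0484). That difference was -0.56 (edgeR adjusted p = 0.278) without castrated gene-trap replicates 1 to 4. The within-group component ended all 3 calls, at 0.27 (edgeR adjusted p = 0.334), 0.080 (edgeR adjusted p = 0.930) and -0.35 (edgeR adjusted p = 0.488). The gene Lysmd4 lies on the opposite strand and covers the 3′ end of Mef2a. Whether the counting used strand is not given, so tags at that end could not be assigned with certainty. Lysmd4 counts came to 31.0% of Mef2a counts, and Lysmd4 was called in none of the 5 comparisons.

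Mef2d (chromosome 3, plus strand), the most abundant of the family, was 220 ± 20.4 CPM in wild-type sham (SD), 173 ± 20.96 in gene-trap sham, 186.5 ± 12.7 in wild-type castrated and 161 ± 15.6 CPM in gene-trap castrated libraries. Wild-type sham ranged from 195 to 255 CPM and overlapped gene-trap sham and wild-type castrated libraries at its lower end, while every gene-trap castrated library, at 192 CPM or less, was below it. Mef2d was 1.26-fold lower in the gene trap among sham-operated males (-0.33 ± 0.11, edgeR adjusted p = 0.0281). In wild type it was 1.18-fold lower in castrated than in sham libraries (-0.24 ± 0.09, edgeR adjusted p = 0.0422). After the GC offset these were -0.072 (edgeR adjusted p = 0.689) and 0.068 (edgeR adjusted p = 0.655), and with the within-group component -0.36 (edgeR adjusted p = 0.0949) and -0.28 (edgeR adjusted p = 0.554), none of them called. The call in sham-operated males was lost without gene-trap sham replicate 1, 2, 3 or 7 or wild-type sham replicate 2. The castration call was lost when any of 15 libraries was left out, and without castrated gene-trap replicates 1 to 4 (-0.20, edgeR adjusted p = 0.06315). Mef2c (chromosome 13, plus strand), which with MEF2A and MEF2D forms the muscle set of the family, was 81.0 ± 11.6 CPM in wild-type sham, 99.5 ± 14.2 in gene-trap sham, 93.2 ± 6.58 in wild-type castrated and 96.7 ± 9.78 CPM in gene-trap castrated libraries. The groups overlapped, and its largest log2 fold change, 0.31 ± 0.12 between the genotypes in sham-operated males, missed the threshold (edgeR adjusted p = 0.0677).

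The shares of the 3 genes in their sum shifted between groups, while their order, Mef2d over Mef2a over Mef2c, was the same in the means of all 4. Mef2d supplied 56.1% ± 3.50 of the Mef2a, Mef2c and Mef2d tags in wild-type sham (SD), against 43.7% ± 5.92 in gene-trap sham, 45.6% ± 3.44 in wild-type castrated and 44.6% ± 4.11 in gene-trap castrated libraries. The lowest wild-type sham library, at 50.8%, was just above the highest library of either castrated group, at 50.7%, and below the highest gene-trap sham library, at 53.9%. Mef2a supplied 23.2% ± 2.14 in wild-type sham and 31.3% ± 3.39, 31.6% ± 3.001 and 28.6% ± 3.32 in the other groups, in the same order. The sum of the 3 genes was 393 ± 38.0, 397 ± 18.02, 410 ± 22.0 and 362 ± 27.9 CPM. It was lowest in gene-trap castrated libraries, whose range of 308.1 to 390.7 CPM overlapped that of each other group. The ends of Mef2d transcripts had a GC content of 54.9% and those of Mef2a 39.9%, on either side of the median of 46.5% over all genes tested.

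**Figure D3:**
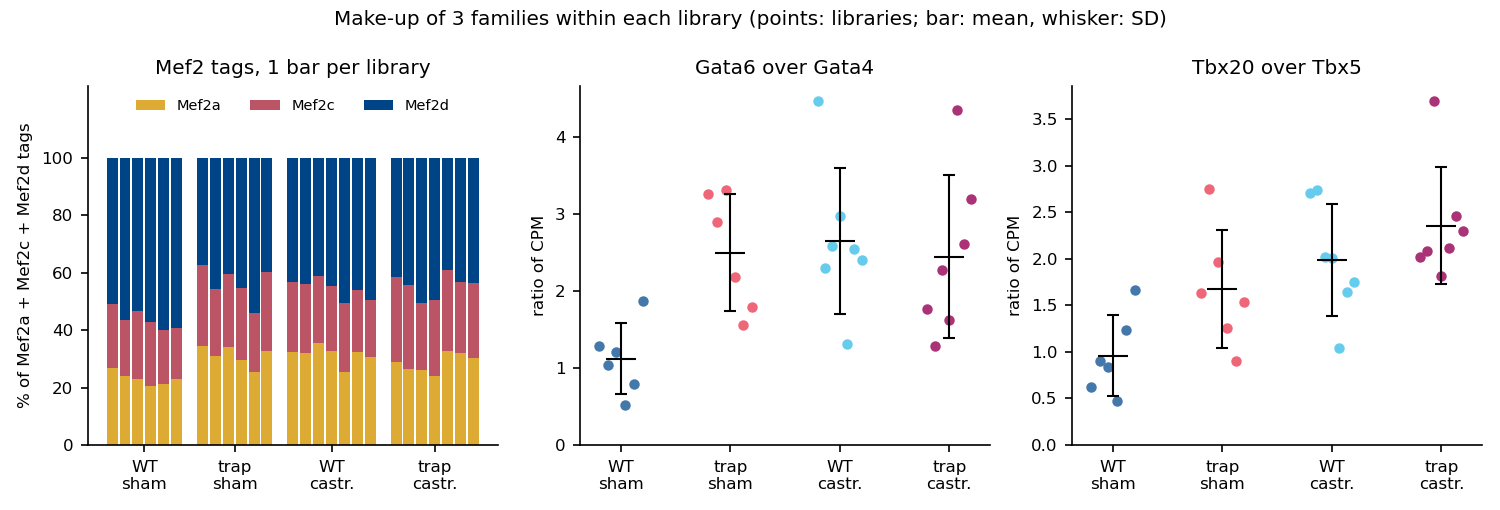
Make-up of 3 families in each library of the 4 groups (WT, wild type; trap, gene trap; castr., castrated): on the left, the percent of Mef2a, Mef2c and Mef2d tags supplied by each gene, with 1 bar per library; in the middle and on the right, the ratio of Gata6 to Gata4 CPM and of Tbx20 to Tbx5 CPM, with 1 point per library, a bar for the mean and whiskers for the SD. Mef2d takes 50.8% to 59.8% of the bar in wild-type sham libraries, and Gata6 over Gata4 is at or below 1.88 there.

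Tbx5, which activates chamber and conduction genes together with NKX2-5 and GATA4, was lower in castrated than in sham-operated males of both genotypes on average. Its lowest, median and highest library stood at 74.8, 93.2 and 136 CPM in sham-operated wild type, 51.7, 85.0 and 117 CPM in gene-trap sham, 49.1, 72.8 and 93.4 CPM in wild-type castrated, and 32.7, 53.8 and 67.7 CPM in gene-trap castrated libraries. Every gene-trap castrated library was below every wild-type sham library, and the other groups overlapped. Castration lowered Tbx5 1.38-fold in wild type (-0.46 ± 0.18, edgeR adjusted p = 0.0349, and -0.52, edgeR adjusted p = 0.0215, with the GC offset). That call was lost without wild-type sham replicate 1, 2 or 4 or wild-type castrated replicate 1, 2 or 3 (-0.55 to -0.34 over all single libraries left out), without a filter on low counts, and with the within-group component (-0.32, edgeR adjusted p = 0.8002). In the gene trap the castration effect was -0.68 ± 0.18, with an unadjusted p of 0.000515 and an edgeR adjusted p of 0.0556. That value passed in DESeq2, with the GC offset (-0.67, edgeR adjusted p = 0.0479), with the component (-0.66, edgeR adjusted p = 0.0313) and with 6 of the 26 single libraries left out, and it was -0.36 (edgeR adjusted p = 0.736) without castrated gene-trap replicates 1 to 4. The difference of the castration effects was -0.22 ± 0.25 (edgeR adjusted p = 0.552). Tbx5 is the member whose value in wild type and in the gene trap had the same sign and a size above 0.4 in both genotypes. The summed level of 5 atrial markers also had higher medians in sham libraries, at 132.9 CPM (57.96 to 245 CPM) in wild type and 107 CPM (52.1 to 341 CPM) in the gene trap, than in castrated ones, at 52.4 CPM (41.8 to 263 CPM) and 87.6 CPM (74.1 to 140.4 CPM). Of the 4 atrial markers tested, 1 was called higher and 0 lower by edgeR after castration in wild type, against 19.1% and 21.3% of all genes. The part of these markers in the Tbx5 values was not tested.

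Tbx20, a repressor and activator needed in adult cardiac muscle, had its lowest, median and highest library at 46.9, 88.7 and 131 CPM in sham-operated wild type, 106, 132 and 153 CPM in gene-trap sham, 97.3, 133 and 156 CPM in wild-type castrated, and 79.1, 121 and 153 CPM in gene-trap castrated libraries. Wild-type sham was the lowest group, with only its highest library inside the range of gene-trap sham. Tbx20 was 1.53-fold higher in the gene trap among sham-operated males (0.61 ± 0.18, edgeR adjusted p = 0.0174), and castration raised it 1.51-fold in wild type (0.59 ± 0.17, edgeR adjusted p = 0.00653). Both passed with the GC offset, at 0.42 (edgeR adjusted p = 0.0482) and 0.39 (edgeR adjusted p = 0.0270). Neither passed with the within-group component, at 0.10 (edgeR adjusted p = 0.713) and -0.071 (edgeR adjusted p = 0.934), the second with the sign turned. The castration effect in gene-trap males was -0.11 ± 0.17 (edgeR adjusted p = 0.773). The difference by genotype, -0.70 ± 0.24 (edgeR adjusted p = 0.0345), was lost with the GC offset (-0.48, edgeR adjusted p = 0.0875), without castrated gene-trap replicates 1 to 4 (-0.43, edgeR adjusted p = 0.429), with the component (-0.066, edgeR adjusted p = 0.914) and with 10 of the 26 single libraries left out. Castrated gene-trap replicates 1 to 4 held 79.1 to 121 CPM of Tbx20 and replicates 5 to 7 held 143 to 153 CPM. The ratio of Tbx20 to Tbx5 CPM was 0.958 ± 0.434 in wild-type sham, 1.67 ± 0.636 in gene-trap sham, 1.99 ± 0.599 in wild-type castrated and 2.36 ± 0.6247 in gene-trap castrated libraries.

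Tbx2, a repressor that keeps the chamber muscle program off in the embryonic atrioventricular canal, had the largest log2 fold change of any member in the sham comparison. Its lowest, median and highest library stood at 6.10, 8.01 and 9.52 CPM in sham-operated wild type, 2.65, 3.81 and 5.72 CPM in gene-trap sham, 4.71, 5.49 and 6.62 CPM in wild-type castrated, and 5.67, 6.46 and 10.4 CPM in gene-trap castrated libraries, from 22 to 83 counts per library. The 2 sham groups did not overlap, and each castrated group overlapped both. Tbx2 was 1.97-fold lower in the gene trap among sham-operated males (-0.98 ± 0.22, edgeR adjusted p = 0.00372), and with the GC offset the value was -1.11 (edgeR adjusted p = 0.00306). With the within-group component it was -0.70 (edgeR adjusted p = 0.142), not called. After castration it fell 1.41-fold in wild type (-0.49 ± 0.18, edgeR adjusted p = 0.0319) and rose 1.80-fold in the gene trap (0.85 ± 0.19, edgeR adjusted p = 0.0416). The difference of the castration effects was 1.34 ± 0.26 (edgeR adjusted p = 0.00587), and 1.5 (edgeR adjusted p = 0.00677) with the GC offset. The fall in wild type was lost without wild-type sham replicate 2, 4 or 5 or wild-type castrated replicate 4, 5, 6 or 7 (-0.56 to -0.43 over all single libraries left out), without a filter on low counts, with the replicate number as a block, and with the component (-0.21, edgeR adjusted p = 0.891). The rise in the gene trap was lost in DESeq2, in limma voom, in a fit to the groups compared only and with 12 of the 26 single libraries left out, at 0.74 to 0.98 over all 26, and was 0.60 (edgeR adjusted p = 0.725) without castrated gene-trap replicates 1 to 4, where the difference by genotype was 1.06 (edgeR adjusted p = 0.235). With the component the rise was 0.85 (edgeR adjusted p = 0.0111) and the difference 1.06 (edgeR adjusted p = 0.367), not called. Those 4 libraries held 6.46 to 10.4 CPM and replicates 5 to 7 held 5.67 to 6.13 CPM, so all but 1 of the 7 were above the highest gene-trap sham library. The related repressor Tbx3 differed in its castration effect by genotype in the other direction (-0.69 ± 0.22, edgeR adjusted p = 0.0300), with group means of 17.5, 20.3, 19.5 and 13.99 CPM.

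Hand2, a helix-loop-helix protein of right ventricular and outflow development, was the steadiest member. Its group means were 42.0 ± 5.37 CPM in wild-type sham (SD), 38.2 ± 2.97 in gene-trap sham, 36.4 ± 4.53 in wild-type castrated and 38.9 ± 4.94 CPM in gene-trap castrated libraries, all overlapping. Its log2 fold changes were between -0.21 and 0.23, none called in the 5 comparisons. Its transcript end had a GC content of 32.8%, lower than in all but 2.05% of the genes tested, and with the GC offset Hand2 was called lower in the gene trap among sham-operated males (-0.41, edgeR adjusted p = 0.0381) and after castration in wild type (-0.66, edgeR adjusted p = 0.00112). The difference of the castration effects was also called with the GC offset (0.68, edgeR adjusted p = 0.0292). Hand2os1, the noncoding gene that runs on the opposite strand from the same locus and is known in the mouse to affect Hand2, was as abundant as Hand2: its counts came to 117% of Hand2 counts. It averaged 38.6 ± 12.8, 51.4 ± 7.64, 46.8 ± 7.30 and 44.4 ± 8.61 CPM in the 4 groups and was not called in any comparison. The 2 genes overlap in the GENCODE M21 annotation, in which Hand2os1 does not cover the 3′ end of Hand2.

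Base composition moved with several members. Over the 26 libraries the log2 level of a member and the GC slope of the library had a Pearson r of -0.93 for Tbx20, -0.86 for Gata6, 0.84 for Nkx2-5 and -0.84 for Mef2a, and between -0.53 and 0.64 for the other 6 genes. The points of such a correlation share the library and its slope, so the values are descriptions. Gata6, with 53.4% GC at its transcript ends, fell with the slope although its GC content was above the median of all genes. With the first within-group component as a covariate, edgeR called 0 members in the sham comparison, with 3 at an unadjusted p under 0.05, and 0 for castration in wild type, with 1 at that level. The same fit called 4.33% and 0.0163% of all genes in these comparisons. That component also differed between the groups compared, so the covariate takes up part of the differences themselves. The part of base composition or of that component in the member differences was not tested beyond these fits. The authors' deposited table called 6 members in the sham comparison: Tbx2 at -0.89, Nkx2-5 at -0.55, Gata4 at -0.55, Mef2d at -0.35, Mef2a at 0.35 and Mef2c at 0.35 (log2, turned to gene trap minus wild type). In the authors' deposited table Tbx20, at 0.33, was not called, and 0 members were called in castrated males.

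**Figure D4:**
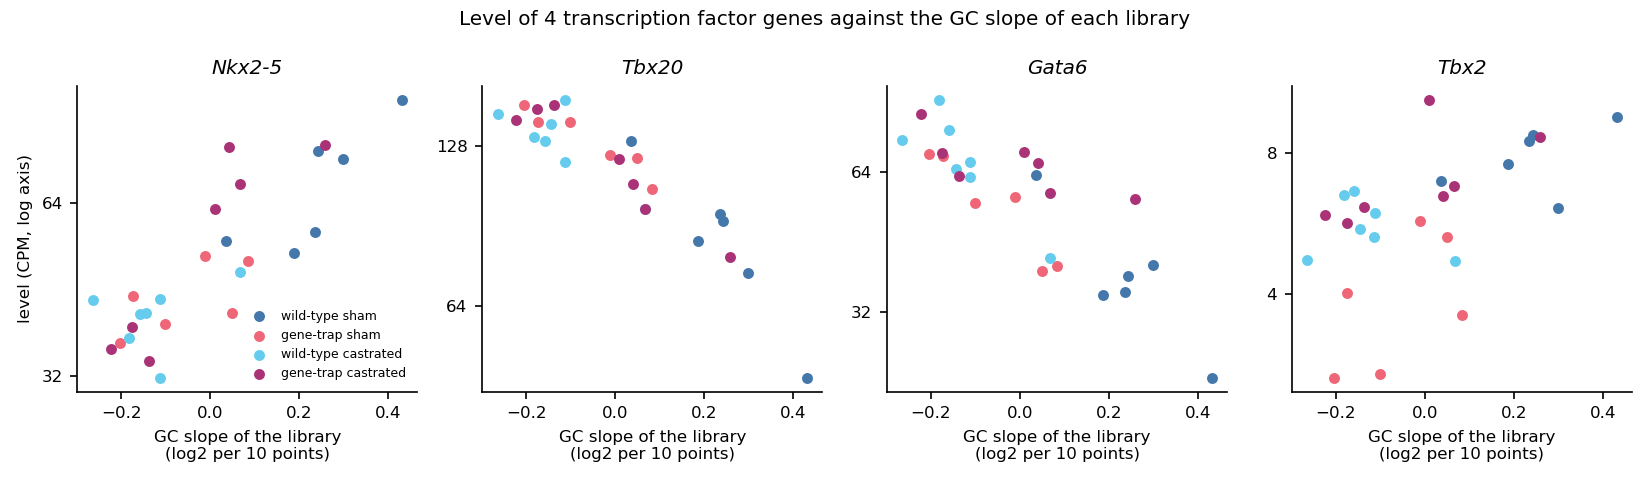
Level of Nkx2-5, Tbx20, Gata6 and Tbx2 (CPM, log axis) against the GC slope of each library (log2 units per 10 GC points), with 1 point per library coloured by group. Nkx2-5 tends to be higher and Tbx20 and Gata6 lower in libraries with a more positive slope. The wild-type sham libraries lie at 0.0355 to 0.430 on that axis. The highest gene-trap sham, wild-type castrated and gene-trap castrated libraries lie at 0.0835, 0.0667 and 0.258. The gene-trap sham libraries have 2.65 to 5.72 CPM of Tbx2, below every wild-type sham library.

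**Figure D5:**
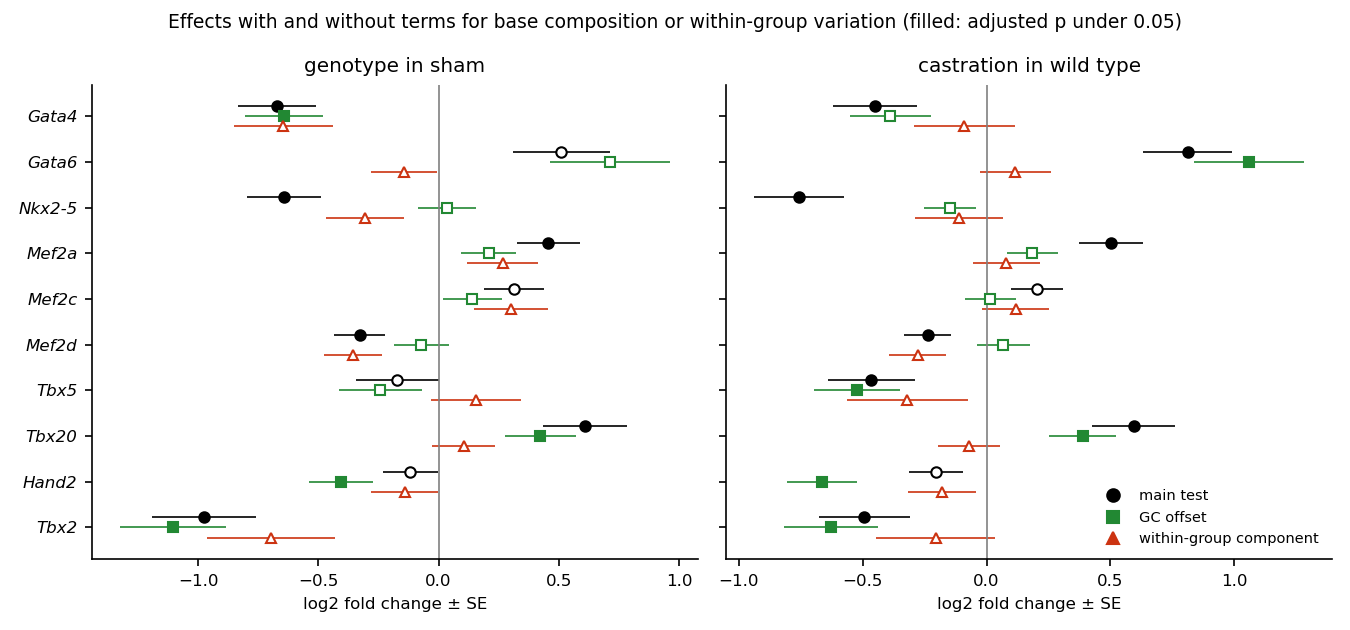
Log2 fold change of each member with its SE (horizontal axis) for gene trap minus wild type in sham-operated males (left) and castrated minus sham in wild type (right), in the main test, with the GC offset, and with the first within-group component as a covariate. Filled symbols have an adjusted p under 0.05. Gata4, Tbx20 and Tbx2 remain called with the GC offset on the left, Nkx2-5 moves to 0.036 there, and with the within-group component no symbol is filled.

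Some pairs of members varied in step or in opposite directions across libraries, and others did not. Over all 26, the log2 levels of Nkx2-5 and Tbx20 had an r of -0.85 and those of Nkx2-5 and Mef2a an r of -0.84, while Gata6 with Tbx20 had 0.79, Mef2a with Tbx20 0.79 and Gata4 with Nkx2-5 0.75. With the group means taken out, the same 5 pairs had -0.79, -0.73, 0.74, 0.71 and 0.67. Tbx5 had -0.063 with Gata4, -0.032 with Nkx2-5 and -0.029 with Hand2. These points share group differences and the GC slope. The genes most like each member over the 26 libraries came from 11479 candidates, the other tested genes with a symbol, without predicted genes and Riken clones. They reached the highest r for Tbx20 (Mzt1 at 0.97, Unc50 and Srsf1 at 0.96) and Gata6 (Ppp1cb at 0.97, Rpl15 at 0.96, As3mt at 0.95). Nkx2-5 was most like Poldip2 at 0.95 with Trap1 and Echs1 at 0.94, Tbx5 most like Uggt1, Ostc and Taf1 at 0.92, 0.92 and 0.91, and Mef2a most like Thoc7, Fryl and Alkbh5 at 0.91, 0.91 and 0.90. The best r was 0.87 for Gata4 (Rab7) and for Mef2d (Ppp1r12b), 0.82 for Mef2c (Mycbp2), 0.79 for Tbx2 (Stx4a) and 0.69 for Hand2 (Rps6ka4).

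Many genes that these factors are known to regulate were lower after castration in wild-type males. Of 34 textbook target genes, 32 were tested, and 20 were called lower and 1 higher after castration in wild type, with a median log2 fold change of -0.43 against -0.02 over all genes, of which 21.3% were called lower and 19.1% higher. The 4 with the smallest p were the caveolin gene Cav3 at -0.63 (edgeR adjusted p = 0.000486), myoglobin Mb at -0.92 (edgeR adjusted p = 0.000752), the ventricular light chain gene Myl3 at -0.89 (edgeR adjusted p = 0.000926) and cardiac actin Actc1 at -0.61 (edgeR adjusted p = 0.000949). Mb went from 20715 ± 5292 CPM in wild-type sham to 10943 ± 4036 CPM in wild-type castrated libraries. The GC offset left 16 targets called lower and 2 higher, where it called 33.3% of all genes. With the within-group component edgeR called 0 targets, with 2 at an unadjusted p under 0.05 and a median of -0.11. It called 0.0163% of all genes there. Between the genotypes in sham-operated males 10 targets were lower and 2 higher, with a median of -0.29, where 14.3% of all genes were lower and 11.9% higher, among them Mb at -1.003 and Myl3 at -0.83, both lower, and the creatine kinase gene Ckmt2 at 0.47, higher. The GC offset left 6 lower and 1 higher, and the component 1 lower, where these fits called 18.9% and 4.33% of all genes. In castrated males edgeR called 0 targets by genotype, while DESeq2 called 1 and voom 0. At an unadjusted p under 0.05 in edgeR there were 7 targets, against 20.4% of all genes. Castration in the gene trap raised 1 target, the slow myosin gene Myh7 (1.20 ± 0.26, edgeR adjusted p = 0.0416), and voom called 0. Of all genes edgeR called 0.407% there. The median GC content of the targets' transcript ends was 51.5%, against 46.5% over all genes tested. In wild-type castrated libraries 6 of the 8 cardiomyocyte markers were called lower too, against 21.3% of all genes. Those markers share genes with the target list.

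Other heart transcription factors and cofactors changed in both directions. Of 41 tested, 9 were higher and 9 lower in the gene trap among sham-operated males, with a median of 0.02, the same as over all genes to 2 decimals, where 11.9% of all genes were higher and 14.3% lower. The GC offset left 6 of the 41 called, against 18.9% of all genes, and the component 2, against 4.33%. The class II deacetylase gene Hdac4, which restrains MEF2, was lower at -0.85 ± 0.16 (edgeR adjusted p = 0.00147), as were Smarcd3, a chromatin remodelling subunit that works with TBX5 and GATA4, at -0.82 (edgeR adjusted p = 0.00235), and the NKX2-5 coactivator gene Camta2 at -0.72 (edgeR adjusted p = 0.00324). The stress-responsive Ankrd1 was higher at 0.73 ± 0.14 (edgeR adjusted p = 0.00160). Castration in wild type raised 9 and lowered 12, where 19.1% of all genes were higher and 21.3% lower. There the GC offset left 13 called, against 33.3% of all genes. With the component edgeR called 0, against 0.0163% of all genes, with 2 at an unadjusted p under 0.05. Smarcd3 fell by 0.97 (edgeR adjusted p = 0.000321), Camta2 by 0.73 (edgeR adjusted p = 0.000478) and Lmcd1, which restrains GATA6, by 0.62 (edgeR adjusted p = 0.000551), whereas Akap6 rose by 0.60 (edgeR adjusted p = 0.000718). Smarcd3 went from 112 ± 27.9 CPM in wild-type sham to 57.4 ± 10.6 CPM in wild-type castrated libraries. In castrated males 0 were called by genotype in edgeR, and 1 each in DESeq2 and voom. At an unadjusted p under 0.05 in edgeR there were 13, against 20.4% of all genes. In the gene trap castration lowered 1, Srf, the partner of myocardin (-0.65 ± 0.15, edgeR adjusted p = 0.0458), while voom called 0. Of all genes edgeR called 0.407% there. The castration effect differed by genotype for 18, against 20.1% of all genes, led by Smarcd3 at 1.23, Hdac4 at 1.03, Nfatc3 at -0.86 and Ppargc1a at -0.85. Without castrated gene-trap replicates 1 to 4 it did so for 0 of them, with 8 at an unadjusted p under 0.05. There 0 of all genes were called.

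Markers of other cell types were set beside these results. Summed levels of 6 fibroblast markers had medians of 911, 921, 920 and 915 CPM in wild-type sham, gene-trap sham, wild-type castrated and gene-trap castrated libraries. Those of 7 mural markers were 1540, 1686, 1695 and 1366 CPM, of 6 endothelial and endocardial markers 590, 528, 582 and 500 CPM, and of 5 conduction system markers 11.1, 11.7, 10.0 and 9.23 CPM. Dcn made up most of the fibroblast sum, with group means of 639 to 699.8 CPM. Rgs5 made up most of the mural sum, at 887 to 1204 CPM. These 2 sums therefore say little about their less abundant markers. Col1a2 had group means of 66.2, 115.9, 128.7 and 117 CPM in the same order, and Col1a1 96.24, 97.09, 103.1 and 98.87 CPM. Erythroid markers were highest in wild-type sham, with medians of 5548, 3380, 2807 and 3484 CPM over 4 globin genes. After castration in wild type edgeR called 3 of 6 fibroblast markers (all higher), 4 of 7 mural markers (3 higher), 3 of 6 endothelial markers (1 higher) and 4 of 4 globin genes (all lower). The same test called 40.3% of all genes, 19.1% higher and 21.3% lower. The part of these markers in the member differences was not tested.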

How the data were processed

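The rule for the 10 members is a list of gene symbols with no measured value in it, but the members and all gene lists were chosen with earlier results of these data known. Per the file headers, the deposited columns named for a library hold the raw count of every gene, as whole numbers. Beside them stands the authors' own DESeq2 result for wild type against gene trap, per the file headers: the mean signal over libraries once scaled by the authors, the log2 fold change and its standard error, a score that divides the former by the latter, and p-values, raw and adjusted. The deposited log2 values and p-values are quoted only where named. STAR, featureCounts 1.6.0 and DESeq2 1.22.2 are named in the submitters' processing notes, as are mm10 and GRCm38.

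Entries that name no gene were kept out of library sizes: 41.9% to 46.8% of a library's reads were not uniquely aligned, 2.66% to 4.62% lay in no gene and 0.277% to 0.358% were ambiguous. Another 4984 genes listed without counts were left out. The test was the robust quasi-likelihood F test of edgeR 4.0.16 in R 4.3.3, with TMM scaling, the filterByExpr filter and Benjamini-Hochberg adjustment over all genes tested. Genotype effects were fitted within sham and within castrated libraries, and castration effects and their difference in a fit to 4 groups. SE was obtained by dividing the absolute log2 fold change by the root of F. Alternatives used DESeq2 1.42.0, limma 3.58.1, other thresholds, filters and scalings, the replicate number as a block, each library left out, and a GC offset from a spline with 4 degrees of freedom on transcript ends (GENCODE M21). Named genes were the members, up to 4 genes per list with the smallest p, the 3 genes most like each member, and relatives and neighbours of the members. A gene that this rule names is not reported here. The tests were first tried on simulated counts. A count of 0 was taken to allow 3 counts, which covers counting error only.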

Additional observations from a re-analysis of the deposited data

Results flagged for a closer look

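Among 40 sets of a member in a group, 2 held a library far from the others of its group, and chance gives such a library in about 1 of 20 sets. Mef2a was at 93.2 CPM in wild-type castrated replicate 5, where the other 6 libraries held 129.8 to 151 CPM. Mef2d was at 213 CPM in wild-type castrated replicate 7, where the others held 176 to 188 CPM.

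For 5 members the castration effect differed between the genotypes in edgeR's test of the difference itself, as gene trap minus wild type on the log2 scale. The difference was 1.34 for Tbx2, 1.14 for Nkx2-5 and 0.87 for Gata4, and -0.76 for Mef2a and -0.70 for Tbx20. The 5 values share the wild-type sham libraries, and 0 of these calls remained without castrated gene-trap replicates 1 to 4. That fit called 0 of all genes for this difference.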

How the results depend on the processing

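The number of members called in sham-operated males, 6, became 3 at an adjusted p under 0.01 and 0 with the within-group component. Over all genes 3036 calls became 1338 and 501. For castration in wild type, 8 became 4 at 0.01, 4 with a minimum absolute log2 fold change of 0.5, 5 without a filter, 5 with the GC offset and 0 with the component. Over all genes 4956 became 2860, 3656, 4313, 4094 and 2 in the same order. For castration in gene trap, 1 became 0 at 0.01, 0 in limma voom, 0 in a fit to the groups compared only, 0 without castrated gene-trap replicates 1 to 4, 2 with the GC offset and 2 with the component. Over all genes 50 became 2, 6, 5, 3, 165 and 871 in the same order. For the difference by genotype, 5 became 3 at 0.01, 0 with the component and 0 without those 4 libraries. Over all genes 2473 became 518, 0 and 0. Leaving out each library gave 5 to 8 members in sham-operated males, 0 to 0 in castrated males, 5 to 8 for castration in wild type, 0 to 2 for castration in gene trap and 4 to 6 for the difference. No count over all genes stands beside these ranges, so they show only how far the member counts moved. The cause was not tested.

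The replicate number as a block gave 6, 0, 5, 2 and 5 members in these 5 comparisons, and with the GC offset 5, 0, 5, 2 and 5. Over all genes the block alone gave 3734, 3, 4381, 331 and 2758 calls, where the main test gave 3036, 24, 4956, 50 and 2473. The block with the GC offset gave 2811, 28, 3614, 389 and 1636 calls over all genes. Same-numbered libraries had correlations of -0.400 to 0.323 over their deviations, with 1 of 6 pairs at most best matched to its own number. So few pairs cannot settle whether a number pairs animals or libraries, which the labels do not state.

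Single values that changed sign follow, and none of these was called once its sign had changed. With the GC offset, Nkx2-5 in sham-operated males went to 0.036 (0.087 with the block), Mef2d after castration in wild type to 0.068 (0.11) and its difference by genotype to -0.21 (-0.31). With the block and the GC offset Mef2d in sham-operated males was 0.010, the Mef2c difference 0.059 and the Mef2c castration effect in gene trap 0.080 (0.053 with the block alone). With the component, Gata6 was -0.14 and Tbx5 0.16 in sham-operated males (Tbx5 was 0.024 in the authors' deposited table), Gata4 -0.038, Gata6 0.14 and Tbx20 0.057 in castrated males, Tbx20 -0.071 after castration in wild type and the Gata6 difference 0.20. Without castrated gene-trap replicates 1 to 4, Gata4 was -0.29, Gata6 0.092, Nkx2-5 -0.17 and Tbx20 0.18 between castrated genotypes, Gata4 -0.038, Nkx2-5 -0.25, Mef2c 0.026 and Tbx20 0.20 for castration in gene trap, and the Tbx5 difference 0.069. Hand2 for castration in gene trap was -0.0027 in voom. With single libraries left out, Gata6 between castrated genotypes ran from -0.13 to 0.048, and Mef2c from -0.095 to 0.021 and Hand2 from -0.0045 to 0.076 for castration in gene trap.

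For the lists, 3 alternatives were added after the data were seen. Of the other factors, 18, 0, 21, 1 and 18 were called in the 5 comparisons in the order above. Of all genes 26.2%, 0.205%, 40.3%, 0.407% and 20.1% were called there. The GC offset gave 6 in sham-operated males, 1 in castrated males, 13 and 2 for castration in wild type and gene trap, and 12 for the difference. It called 18.9%, 0.847%, 33.3%, 1.34% and 11.6% of all genes there. The component gave 2 in sham-operated males, 0 and 6 for castration, and 0 for the difference, against 4.33%, 0.0163%, 7.09% and 0% of all genes. Without castrated gene-trap replicates 1 to 4 there were 0 for castration in gene trap and 0 for the difference, against 0.0236% and 0% of all genes. Of the targets, 12, 0, 21, 1 and 7 were called, beside the same shares of all genes. The GC offset gave 7 in sham-operated males and 4 for the difference, against 18.9% and 11.6% of all genes. The component gave 1, 0, 2 and 0 for sham, castration in wild type, castration in gene trap and the difference. Leaving out those 4 libraries gave 0 for castration in gene trap and 0 for the difference. For the component and without those libraries, the shares of all genes are those given above. Tbx2, at 22 to 83 counts per library, is the member whose level depth limits most.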
